A study of Homo sapiens with 36 samples.

Results

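Knockout clone 12 was derived from H446, a human cell line of small-cell lung cancer in which the neuronal factor NEUROD1 is active, and its response to the BET bromodomain inhibitor JQ1 was described here from 5 of the 36 libraries of the study. These 5 libraries were the 3 treated with the solvent DMSO (replicates 1 to 3) and 2 of the 3 treated with JQ1 (replicates 2 and 3). They were chosen by label, except that JQ1 replicate 1 was left out for the lung RNA it holds. The response was set against that of knockout clones 15 and 2-1, each with 3 DMSO and 3 JQ1 libraries. All 3 are single clones made with guide RNA #297 against NEUROD1, all groups received either DMSO or 1 µM JQ1 for 24 h, and the labels call the replicates biological. The 3 control clones of the study carry a non-targeting guide RNA and are named here only for their values beside those of clone 12. Because each knockout background is 1 clone, the p-values below measure the spread between libraries of a clone, not between clones.

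BET proteins, such as BRD2, bind acetylated histones and help RNA polymerase II leave its pause, and JQ1 occupies their bromodomains. In the basal layer of stratified and airway epithelium, TP63 is the lineage factor and the keratins KRT5 and KRT14 form the cytoskeleton. AP-1 factors (dimers of FOS, JUN and related proteins) are transcribed within minutes of growth factor signalling through EGF receptors and the MAP kinases, and the Sprouty and dual-specificity phosphatase (DUSP) proteins are feedback inhibitors of that pathway. TXNIP and its relative ARRDC4 are alpha-arrestins that restrain glucose uptake, and both are known targets of the glucose-sensing factors MondoA (MLXIP) and ChREBP (MLXIPL), which bind paired E-box-like carbohydrate response elements.

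The promoters of the 2 alpha-arrestins, which rose further in clone 12 than in the other clones, and of EMP1, which moved in opposite directions in clone 12 and in the others, are shown because these genes are among those that set clone 12 apart. Each is the 250 bases before the start of the gene from RefSeq on GRCh38.p14, 5′ to 3′ on the strand of the gene. The counts below were made on another build, hg19. TXNIP lies on the minus strand (chr1:145996580-145996829), ARRDC4 on the plus strand (chr15:97960453-97960702) and EMP1 on the plus strand (chr12:13196476-13196725). Capitals mark matches of CACGNG (an E-box-like site), CCAAT and the AP-1 motif TGANTCA, all 3 searched on both strands of all 3 windows.
TXNIP: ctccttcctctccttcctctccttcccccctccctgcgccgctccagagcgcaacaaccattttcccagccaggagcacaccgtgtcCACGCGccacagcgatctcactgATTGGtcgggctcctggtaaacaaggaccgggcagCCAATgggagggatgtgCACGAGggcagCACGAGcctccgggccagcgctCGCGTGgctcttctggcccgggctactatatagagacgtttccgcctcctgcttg
ARRDC4: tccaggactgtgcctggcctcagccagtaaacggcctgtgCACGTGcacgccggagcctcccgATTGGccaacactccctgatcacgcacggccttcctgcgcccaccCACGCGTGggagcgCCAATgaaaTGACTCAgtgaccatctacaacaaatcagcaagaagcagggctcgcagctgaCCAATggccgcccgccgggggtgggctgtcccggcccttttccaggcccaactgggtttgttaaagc
EMP1: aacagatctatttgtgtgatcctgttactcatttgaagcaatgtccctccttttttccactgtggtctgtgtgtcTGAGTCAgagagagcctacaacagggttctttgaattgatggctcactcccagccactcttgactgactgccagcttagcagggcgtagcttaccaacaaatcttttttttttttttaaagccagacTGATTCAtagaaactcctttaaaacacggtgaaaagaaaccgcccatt
The TXNIP window held 4 CACGNG matches, 2 of them paired on the same strand with 5 bases between, and 2 CCAAT matches. The ARRDC4 window held 3 CACGNG matches, 2 of which overlap, 3 CCAAT matches and 1 TGANTCA match. The EMP1 window held 2 TGANTCA matches and no match of the other motifs, and the TXNIP window no TGANTCA match. Among 35116 promoters of the same length CACGNG was in 26.7%, CCAAT in 32.0%, TGANTCA in 6.57%, and the paired form in 0.0456% (16 promoters). A match describes the letters in the window and does not show that a factor binds there.

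The 17 libraries compared held 13918686 to 18890506 reads, with a median of 16465028. In the library left out, replicate 1 of clone 12 with JQ1, CEACAM6 of lung epithelium stood at 46010 normalized counts against 0 in all 17 others, and 9 alveolar markers summed to 75206 against 14.6 to 115.7. NEUROD1 gave 0, 0 and 1 reads in the DMSO libraries of clone 12 and 1 and 0 in its JQ1 libraries, against 4740 to 9169 reads in the control libraries. It gave 0 reads in every library of clone 15 and 4 to 10 reads in each library of clone 2-1. JQ1 replicate 1 of control clone 13 also held a trace of lung RNA (CEACAM6 at 80.4 and 0 in the other 17 control libraries), and its part in the control values was not tested beyond leaving it out for 4 genes (TXNIP 1.37 in place of 1.36 and HBEGF 1.39 in place of 1.25, with FOSL1 and LIF given below). The label of a basal-like clone was checked on 7 basal markers found in the table (DSG3 was not among its genes). TP63 averaged 20645 normalized counts with DMSO in clone 12, above 4802 to 5163 in clone 15 and 115 to 155 in clone 2-1. KRT14 and KRT17 were also highest in clone 12, whereas KRT5, KRT15, SERPINB5 and the nerve growth factor receptor NGFR were higher in clone 15. Summed over all 7, clone 12 held 37552 to 39122 with DMSO, clone 15 held 40736 to 43529 and clone 2-1 6143 to 6629. Clone 12 also carried stromal transcripts, with 9 fibroblast and endothelial markers summing to 36953 to 39102 with DMSO, so the basal genes did not stand alone. This was not particular to clone 12. The same sum was 25803 to 27023 in clone 15 and 53986 to 55338.5 in clone 2-1. Most of the sum in clone 12 was the collagen gene COL1A2, given below.

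With JQ1, clone 12 showed most of the usual signs of BET inhibition. BRD2 stood at 4099, 3833 and 3969 normalized counts with DMSO and at 16661 and 16683 with JQ1. It rose by 2.07 ± 0.03 on the log2(normalized count + 1) scale (SE; limma, adjusted p = 1.63e-20), against 2.06 in clone 15 and 1.89 in clone 2-1. HEXIM1, the inhibitor of the elongation kinase P-TEFb, rose by 2.19 ± 0.08, from 479.9, 416 and 499 to 2049.8 and 2201. MYC did not fall. It went from 1173, 1161 and 1135 to 3978 and 4174, a rise of 1.82 ± 0.06 (adjusted p = 4.29e-16), with no overlap between treatments. A list of 10 markers whose increase is a usual sign of BET inhibition was also counted. In clone 12, 9 of the 10 went up and 1 went down past the threshold, where 27.6% of all genes tested rose and 31.9% fell. All 10 went up in clone 15 and in clone 2-1. The marker that went down in clone 12 was SERPINI1, which fell by 0.41 there and rose by 0.46 in clone 15 and 0.81 in clone 2-1.

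Over the 16968 genes tested, 4679 rose and 5416 fell in clone 12 (limma, adjusted p under 0.05), 59.5% in all. A 2-fold minimum left 895 rises and 2169 falls. For clone 15 the calls were 58.8% (27.2% higher and 31.6% lower) and for clone 2-1 60.5% (27.5% and 33.0%), with 644 and 594 genes up at least 2-fold and 1801 and 2250 down. Clone 12 thus had more rises past 2-fold than either other clone, a count that was not itself tested. Over the 11420 genes expressed in all 3 clones (a mean of at least 50 normalized counts in DMSO or JQ1), the response of clone 12 correlated with that of clone 15 (Pearson r = 0.845) and of clone 2-1 (r = 0.801), and clones 15 and 2-1 with each other (r = 0.872). These correlations run across genes within clones that share no library, and are given as a description.

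Among the largest rises in clone 12 were TXNIP (4.77), the testis and mitosis gene TEX14 (4.88 ± 0.41), the neuronal tubulin TUBB3 (4.39 ± 0.11), SLFN5 (4.04 ± 0.39), ZCCHC12 (3.86 ± 0.35), the lipid droplet protein PLIN5 (3.81 ± 0.46) and PTCHD2 (3.6 ± 0.6). TUBB3 stood at 143, 138 and 177 with DMSO and at 3158 and 3241 with JQ1 (the symbol stands on 2 gene models, and this is the one that passed). It rose in the other clones too, by 2.65 and 3.73. The histone genes HIST2H4B (6.62) and HIST2H3C (4.12) and the factor VIII-associated gene F8A3 (5.13) were also in this group, but each has near-identical copies between which reads may be split. HIST2H4B in clone 12 with DMSO ranged from 0 to 447 between replicates, so its size is uncertain.

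Of the 10 largest falls in clone 12, 9 were of genes that stood higher in clone 12 with DMSO than in every DMSO library of clones 15 and 2-1 (all but KRT80). A large fall needs a high DMSO level in clone 12, and the ranking used the same DMSO libraries. This count is therefore a description, and it was not set against all genes. The chemokine CCL2 held 260 reads over the 3 DMSO libraries and 1 read over the 2 JQ1 libraries, a 180-fold difference after scaling (95% exact counting interval 32.0 to 7130). The interval covers counting error only. The tyrosine kinase BMX fell from 438 reads to 3 (101-fold, 34.3 to 491), the acyl-CoA synthetase ACSL5 from 377 to 2 (130-fold, 35.8 to 1080), the GABA receptor subunit GABRR1 from 149 to 1 (103-fold, 18.2 to 4090) and the interleukin-7 receptor IL7R from 280 to 3 (64.5-fold, 21.8 to 315). Interleukin-6 (IL6) stood at 314, 268 and 298 normalized counts with DMSO and at 5.83 and 1.17 with JQ1, a fall of 6.25 ± 0.50 on the log2 scale (adjusted p = 1.1e-09). VE-cadherin (CDH5, 244 to 271 with DMSO and 4.86 and 2.33 with JQ1), the urea transporter SLC14A1, the ephrin receptor EPHA2 and the keratin KRT80 completed the 10. KRT80 went from 805, 743 and 817 to 10.7 and 18.7, and it fell by 5.70 ± 0.17 in clone 12 against 3.59 in clone 15 and 3.01 in clone 2-1.

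**Figure D1:**
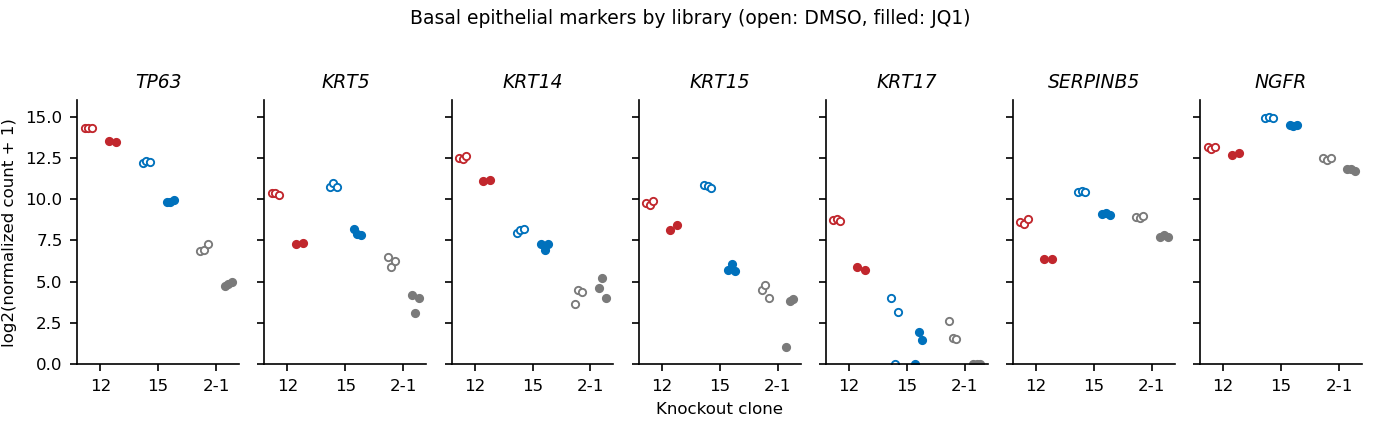
Basal epithelial markers by library, with log2(normalized count + 1) on the vertical axis and the 3 knockout clones on the horizontal axis. Open points are DMSO libraries, filled points JQ1 libraries. The filled points of TP63 lie below the open ones in every clone, and by less in clone 12 than in clones 15 and 2-1.

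Each of the 7 basal markers fell in clone 12, NGFR by least and the lineage factor TP63 by the next smallest amount. TP63 went from 20933, 20602 and 20401 to 12000 and 11517, a fall of 0.81 ± 0.09 (limma, adjusted p = 8.46e-08), while it fell by 2.41 in clone 15 and 2.17 in clone 2-1. The difference in response, clone 12 minus the mean of the other 2, was 1.48 ± 0.10 (adjusted p = 1.36e-09). KRT5 fell by 3.03 ± 0.23 in clone 12, from 1356, 1313 and 1240 to 158.4 and 158.7, and no difference from the other clones was found (difference -0.38 ± 0.27, adjusted p = 0.34). KRT14 fell by 1.38 ± 0.25, from 5874, 5560 and 6225 to 2242 and 2278. KRT15 fell by 1.50 in clone 12 and by 4.97 in clone 15, and the serpin SERPINB5 by 2.28 against 1.36. The summed level of the 7 markers in the JQ1 libraries of clone 12 was 21549 and 21607, and most of it was TP63 and NGFR, the latter falling by only 0.38.

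Of 36 basal epithelial genes tested, 26 fell (72.2%) and 2 rose (5.56%) in clone 12 with a median change of -1.23. Over all genes tested 31.9% fell and 27.6% rose, with a median of -0.07. In clone 15 29 fell and in clone 2-1 25 fell, with medians of -1.38 and -1.13. The keratin KRT75 fell by 3.28 and the p53-inducible 14-3-3 protein SFN by 3.41, and parathyroid hormone-like hormone (PTHLH) dropped from 56 reads to 0 (at least 12.9-fold, against a floor of 3 reads over the 2 libraries). The water channel AQP3 was 1 of the 2 that rose, by 1.83 ± 0.27. Of 13 squamous differentiation genes 9 fell (69.2%) and 0 rose (also 0 at an unadjusted p under 0.05, by edgeR and by DESeq2). Among those that fell was transglutaminase 1 (TGM1), which went from 79.0, 119.7 and 112.3 to 6.80 and 4.67. Mesenchymal and matrix genes fell as well (33 of 44, 75.0%, while 3 rose, 6.82%, median -0.97). Type I collagen chain COL1A2 went from 30172, 28297 and 29945 to 5113 and 5316 in clone 12, a fall of 2.50 ± 0.03 against 1.13 in clone 15 and 1.56 in clone 2-1. The summed fibroblast and endothelial markers fell with the basal genes, to 8471 and 8842, and their part in the basal result was not tested. In bulk RNA, fewer cells of a kind and less RNA per cell cannot be told apart.

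Some gene lists rose in clone 12, where 27.6% of all genes tested rose and 31.9% fell. Among 36 replication-dependent histone genes 28 rose (77.8%) and 0 fell, with a median of 2.02. There were also 0 falls at an unadjusted p under 0.05, by edgeR and by DESeq2. HIST2H2BE stood at 116, 134 and 125 with DMSO and 1309 and 1262 with JQ1. The same list had medians of 1.80 and 1.88 in the other clones. The libraries came from an mRNA preparation, so these counts cover only the histone transcripts it captured. Whether the captured share changed with JQ1 was not tested. Of 21 neuroendocrine score genes 12 rose (57.1%) and 2 fell (9.52%), with a median of 0.74 against 0.27 and 0.40. In clone 15 10 rose and 4 fell, and in clone 2-1 10 rose and 6 fell. The endophilin SH3GL2 rose from 592, 608 and 595 to 1715 and 1733, by 1.53 ± 0.07 (adjusted p = 2.29e-13). Synapsin (SYN1) rose from 6.15, 3.63 and 2.16 to 31.1 and 30.3 normalized counts, where control clones averaged 511 to 724 with DMSO. The summed level of the 9 neuroendocrine markers was 4620 to 5077 with DMSO and 3984 and 3806 with JQ1, so the sum did not rise with the count of genes. Genes of G2 and mitosis fell in 52 of 62 cases (83.9%, median -0.70), with the mitotic transcription factor FOXM1 down by 1.64 ± 0.05. Falls in that list numbered 61 in clone 15 and 52 in clone 2-1. The 26 interferon-stimulated genes gave 15 falls (57.7%) and 3 rises (11.5%).

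**Figure D2:**
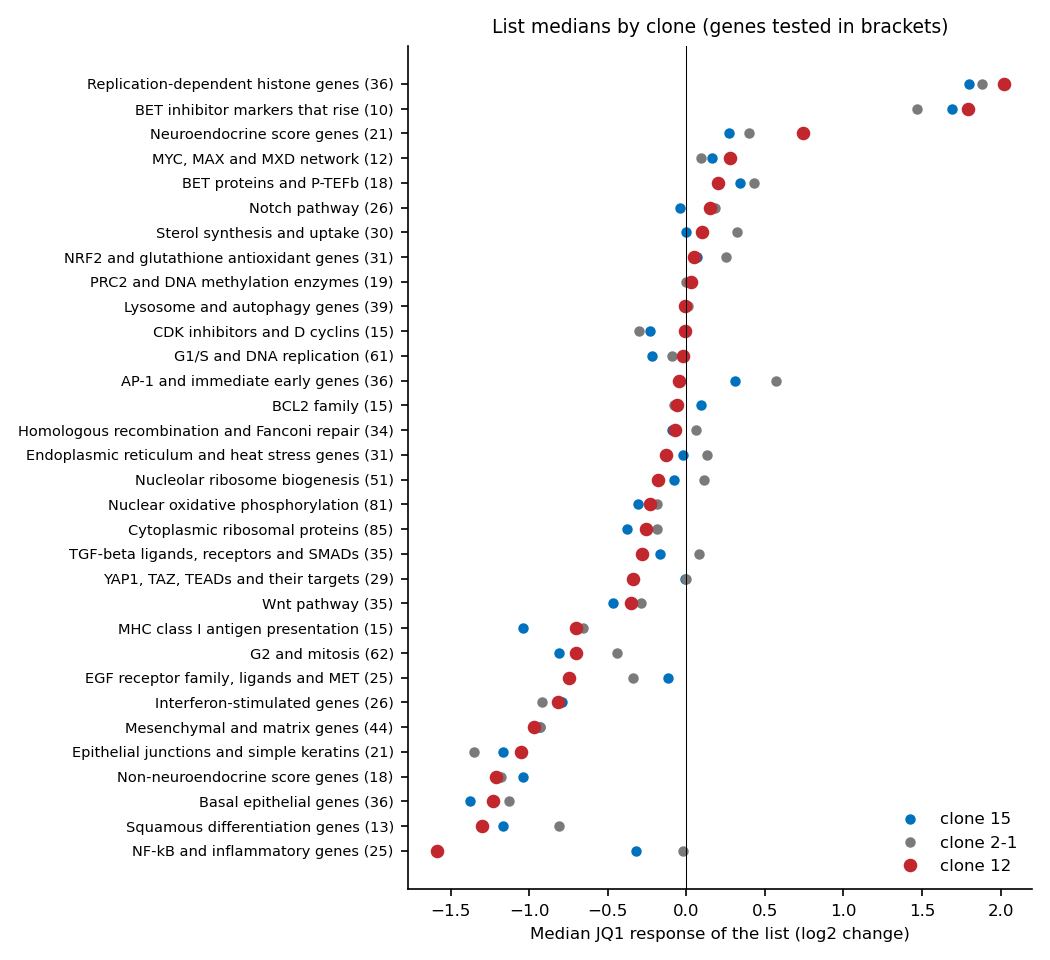
Median JQ1 response of each gene list by clone, on a log2 scale, with the number of genes tested in brackets. In clone 12 the NF-kB and inflammatory list (median -1.59) lies left of clones 15 (-0.32) and 2-1 (-0.02), while the histone lists of all 3 clones lie together near 2. The median of the per-gene differences of the NF-kB list was smaller, -0.31.

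To ask where clone 12 departed from the other knockout clones, the response of clone 12 was tested against the mean response of clones 15 and 2-1. The difference passed for 3940 of 16968 genes (23.2%; 1996 higher and 1944 lower in clone 12). Between clones 12 and 15 alone 18.8% of genes differed, between clones 12 and 2-1 26.3% and between clones 15 and 2-1 19.7%. Departing genes were those that passed this test and whose response in clone 12 lay at least 1 log2 unit above both other clones, or below both. There were 562 (3.31% of genes tested), 263 higher (1.55%) and 299 lower (1.76%), while by edgeR 58.3% of 417 were higher. Of these, 144 were expressed in all 3 clones (1.26% of 11420 such genes, 71 higher and 73 lower). Most of the 562 were low in clone 12. For 321 of them (of 4751 such genes, 164 higher and 157 lower) its mean was under 50 normalized counts under both treatments. Just inside the limit were HIST1H2AC (1.001) and RAB30 (1.003), and just outside it CLGN (0.99) and FAM124B (0.989).

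**Figure D3:**
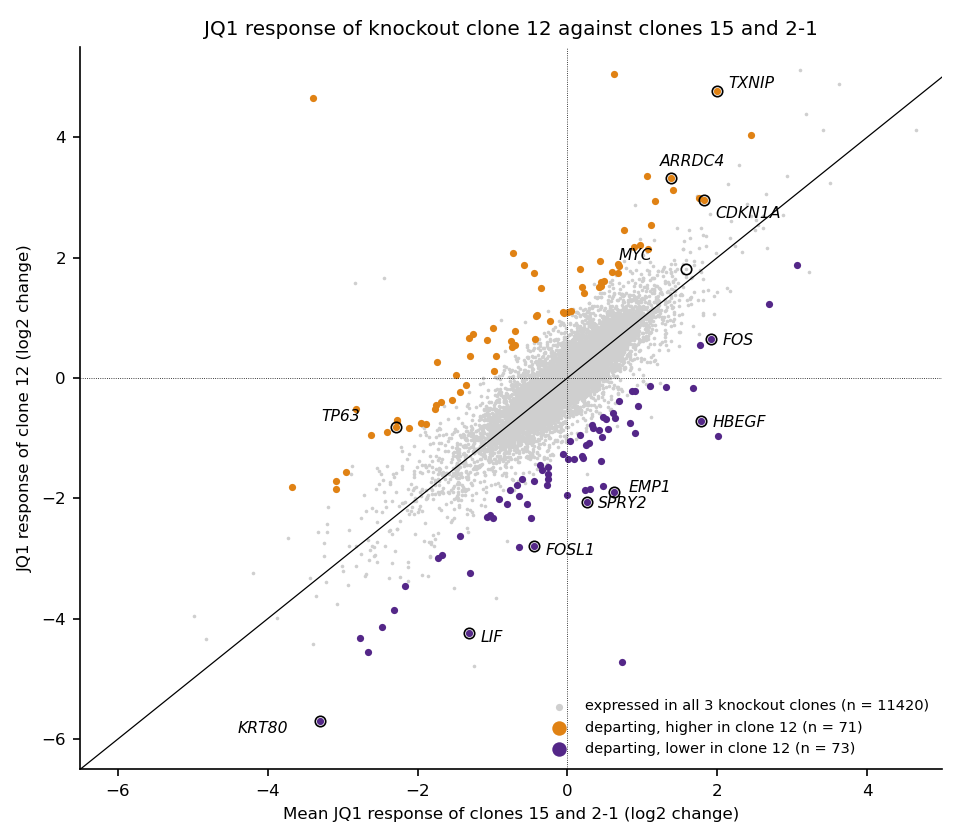
JQ1 response of clone 12 (vertical) against the mean response of clones 15 and 2-1 (horizontal), both as log2 change, for the 11420 genes expressed in all 3 clones. Coloured points are the 71 genes with a higher and the 73 with a lower response in clone 12.

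The levels of the departing genes in clone 12 were set beside those of the other clones under each treatment. Of the 71 with a higher response, clone 12 was below both other clones with DMSO for 53 and above both with JQ1 for 41. Of the 73 with a lower response, it was above both with DMSO for 48 and below both with JQ1 for 50. The responses that chose these genes share libraries with both the DMSO and the JQ1 levels. These counts, and the directions below, are therefore a description, and they were not set against all genes. Among the 71, 45 rose in clone 12 and 15 fell, and 35 fell in both other clones. Among the 73, 64 fell in clone 12 and 5 rose, and 27 rose in both other clones. A further 54 departing genes were expressed in clone 12 alone (of 342 such genes), of which 47 had a lower response. This class limits both other clones to means under 50, which left them little room to fall. The direction of these 47 is therefore partly set by the class.

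**Figure D4:**
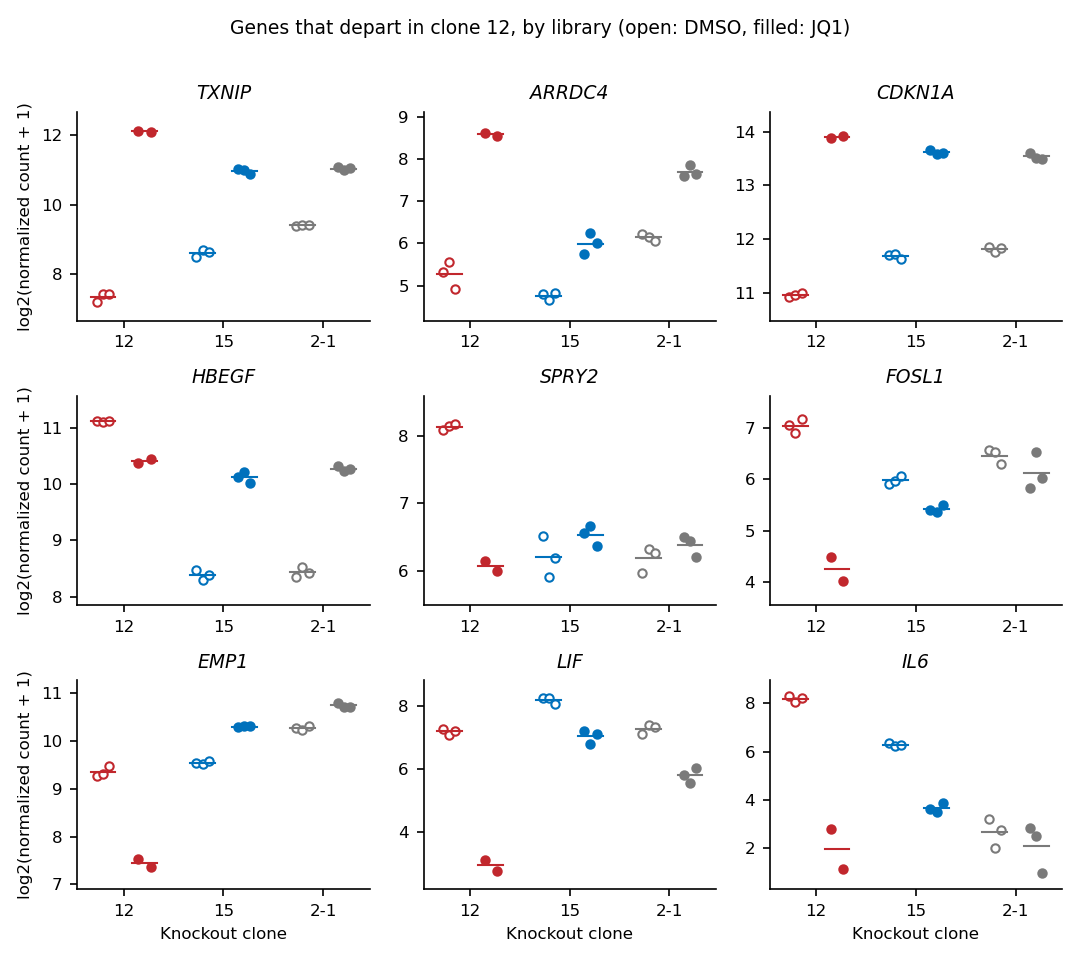
Values by library of 9 departing genes in the 3 knockout clones, as log2(normalized count + 1). Open points are DMSO, filled points JQ1 and lines are means. TXNIP and ARRDC4 climb further in clone 12, and HBEGF falls in clone 12 and rises in the other clones.

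Among the largest departures upward of well-expressed genes were the alpha-arrestins whose promoters are printed above. TXNIP stood at 146, 169 and 171 normalized counts in clone 12 with DMSO and at 4478 and 4411 with JQ1. In clone 15 it went from 358, 413 and 397 to 2082, 2038 and 1895, and in clone 2-1 from 664, 682 and 685 to 2164, 2036 and 2107. Clone 12 thus began lowest and ended highest, and its libraries did not overlap those of either other clone under either treatment. Its rise of 4.77 ± 0.07 exceeded the mean of the other clones by 2.78 ± 0.08 (adjusted p = 3.07e-15), and the control clones rose by 2.10, 1.63 and 1.36. ARRDC4 repeated this, from 39.0, 46.0 and 29.2 to 391.7 and 371 in clone 12. It rose by 3.32 ± 0.20 against 1.23 and 1.54, a difference of 1.93 ± 0.24 (adjusted p = 3.87e-06). The 67 promoters of 44 genes with a higher departing response held CACGNG in 22.4%, against 26.7% of all promoters. Of the 71 genes, 44 were matched in the RefSeq table.

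The other departures upward took different forms. Some genes rose further in clone 12, such as the giant sarcomere protein titin (TTN), which went from 35.9, 56.8 and 38.9 to 480.1 and 420.2 and rose by 3.36 against 1.49 and 0.63. Others had negative values in both other clones, and in clone 12 they rose, did not pass or had a smaller negative value. The thyrotropin receptor TSHR had a response of -0.52 in clone 12, -3.37 in clone 15 and -2.27 in clone 2-1. The monocarboxylate carrier SLC16A9 had a value of 0.26 ± 0.15 in clone 12, which did not pass (adjusted p = 0.16), against falls of 1.47 and 2.00. The repressor GFI1 had a value of 0.66 ± 0.28 (adjusted p = 0.0474), which turned to -0.03 with FPKM and did not pass with a replicate block, where it fell by 1.51 and 1.12. The scaffold AHNAK2 rose by 1.75 where its values were -0.12 and -0.78, and SAMD11 by 0.72 where it fell by 1.42 and 1.09. FAM21D and CSAG2 were also ranked here, but the response of FAM21D in clone 12 did not pass (0.83), both have near-identical copies, and CSAG2 read 0, 174 and 0 in the DMSO libraries of clone 12. The related CSAG3 was ranked among the departures downward with 107 and 0 under JQ1, so neither value is firm.

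Among genes below 50 counts in at least 1 clone, PCDH17 (difference 2.37), HES7 (2.55), ZCCHC12 (3.69), PLIN5 (2.40) and SLPI (1.88) departed upward by most, ranked by the distance to the nearer of the other clones among genes with a mean of at least 50 in the higher group of clone 12. The own responses of PCDH17 (0.25) and SLPI (1.13) in clone 12 did not pass. HES7, an oscillating Notch target, went from 32.8, 31.4 and 31.3 to 140.0 and 117.9 in clone 12. In clone 15 its response was -0.04, which did not pass. In the Notch list of 26 genes 9 rose (34.6%) and 6 fell (23.1%) in clone 12, beside 27.6% and 31.9% of all genes. The responses of 4 were higher (15.4%) and of 3 lower (11.5%) than in the other clones, near the 11.8% and 11.5% of all genes. The Notch feedback gene NRARP was among the 4, at 39.0, 59.3 and 42.1 with DMSO and 381.0 and 365 with JQ1. Of the genes ranked lower, the stem cell factor KITLG (3.12 against 1.23 and 1.59) and the mTOR inhibitor DDIT4 (1.81 against 0.30, and 0.04 in clone 2-1, which did not pass) were chosen after their values were seen.

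Among inhibitors of cyclin-dependent kinases, CDKN1A, CDKN1B, CDKN2B, CDKN2C and CDKN2D had a higher response in clone 12, and the differences of CDKN1C (0.37) and CDKN2A (-0.13) did not pass. CDKN1A (p21) stood at 1941, 1979 and 2029 in clone 12 with DMSO, below 3166 to 3714 in the other clones, and at 15188 and 15530 with JQ1, above 11593 to 12920. Its rise of 2.95 ± 0.04 exceeded theirs, 1.93 and 1.72, by 1.13 ± 0.05 on the log2 scale (adjusted p = 6.72e-13). CDKN2B (p15) rose by 1.20 against 0.79 in clone 15 and 0.10, which did not pass, in clone 2-1. CDKN1B (p27) rose by 0.24 where the other clones had values of -0.23 and -0.39, and CDKN2C (p18) by 0.48 where they had -0.14 and 0.00. Of 15 CDK inhibitors, D cyclins and partners, 8 had a higher and 1 a lower response in clone 12, beside 11.8% and 11.5% of all genes. In the G1/S list, 16 of 61 had a higher and 1 a lower response. Cyclin E2 (CCNE2) rose by 1.73 in clone 12 against 1.06 and 1.11, and cyclin E1 (CCNE1) by 0.74 where the values of the other clones, 0.09 and 0.15, did not pass. The G2 and mitosis list was split, with 9 higher and 10 lower.

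**Figure D5:**
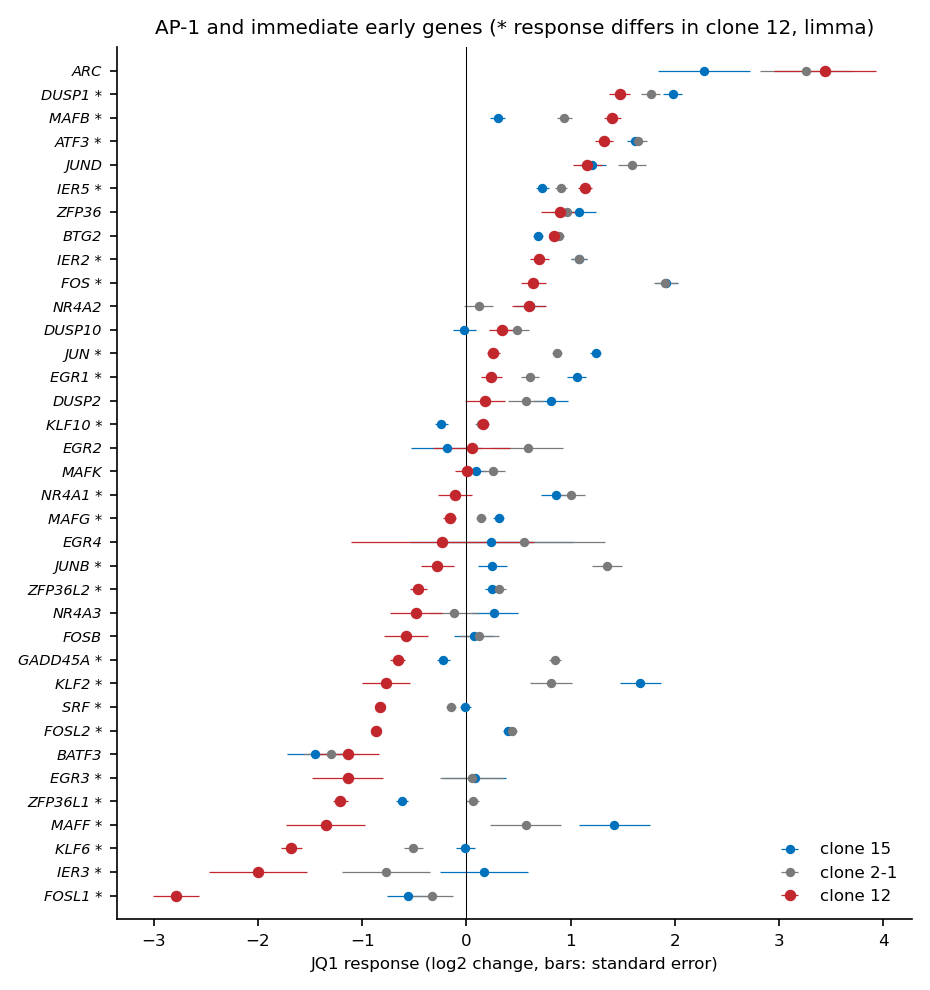
JQ1 response of each AP-1 and immediate early gene in the 3 knockout clones, as log2 change with standard errors. Asterisks mark the 23 genes whose response in clone 12 differs from the mean of the other clones, 20 of them lower.

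AP-1 and immediate early genes had, of the lists counted, the largest share of members whose response was lowest in clone 12. In clone 12, 15 of 36 rose (41.7%) and 14 fell (38.9%), beside 27.6% and 31.9% of all genes. The median was -0.05. In clone 15 20 rose and 5 fell (median 0.31), and in clone 2-1 23 rose and 3 fell (0.57). The difference was lower for 20 genes (55.6%) and higher for 3 (8.33%), beside 11.5% and 11.8% of all genes. Clone 12 had the lowest response of the 3 clones for 27 of 36, which is 75.0% against 34.8% of all genes tested. The share was nearly as large, 70.6%, in the nucleolar ribosome biogenesis list. The FOS-related factor FOSL1 stood at 132, 119 and 143 with DMSO and at 21.4 and 15.2 with JQ1, a fall of 2.79 ± 0.22 against -0.56 in clone 15 and -0.33, which did not pass, in clone 2-1 (difference -2.35 ± 0.26, adjusted p = 1e-06). The responses of FOSL1 in control clones 3, 10 and 13 were -2.53, -2.33 and -2.85, and -2.24 in clone 13 without its JQ1 replicate 1.

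In 4 members the gene fell in clone 12 and rose in both other clones. One of them was the Krüppel-like factor KLF2, which fell by 0.77 and rose by 1.67 and 0.81. MAFF fell by 1.35 in clone 12 and rose by 1.42 in clone 15. KLF6 fell by 1.68 in clone 12, where its value was -0.01 in clone 15 and it fell by 0.51 in clone 2-1. FOS and JUN themselves, chosen after their values were seen, rose in clone 12 but less. FOS rose by 0.64 against 1.92 and 1.91, and JUN by 0.26 against 1.24 and 0.87. DUSP1, a phosphatase induced by the same signals, rose in all 3 clones (1.47, 1.98 and 1.77).

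The EGF receptor family list, which holds ligands, receptors and feedback inhibitors, had 2 rises (8.0%) and 15 falls (60.0%) in 25 genes in clone 12. Over all genes tested 27.6% rose and 31.9% fell. The response of 12 was lower (48.0%) and of 1 higher (4.0%) than in the other clones, beside 11.5% and 11.8% of all genes. Among ligands, heparin-binding EGF (HBEGF) stood at 2216, 2195 and 2224 in clone 12 with DMSO, far above every library of the other clones, and at 1320 and 1388 with JQ1. In clone 15 it went from 353, 313 and 332 to 1119, 1183 and 1034, and in clone 2-1 from 327, 370 and 340 to 1274, 1199 and 1227. Clone 12 fell by 0.71 ± 0.07 where the others rose by 1.74 and 1.83, a difference of -2.49 ± 0.08 (adjusted p = 5.49e-15), and the clones ended near each other. The control clones rose by 1.40, 1.18 and 1.25. Neuregulin 1 (NRG1) fell by 2.72 in clone 12 against 1.36 and 2.28. The 1 gene with a higher response was hepatocyte growth factor (HGF), the ligand of MET, at 1.53 against 0.62 and 0.48.

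Among feedback inhibitors, Sprouty 2 (SPRY2) went from 270, 281 and 287 to 70.0 and 63.0 in clone 12. The values of clone 15 (59.4 to 90.9 with DMSO, 81.7 to 100.9 with JQ1) and clone 2-1 (61.6 to 79.6 and 72.9 to 89.8) overlapped between treatments or nearly so. The difference was -2.32 ± 0.22 (adjusted p = 8.82e-08). Sprouty 4 (SPRY4) fell by 1.79 where its values were 0.06 and 0.89. The phosphatase DUSP6 fell by 0.17 in clone 12 (751, 791 and 808 to 732 and 663) and rose by 2.08 and 1.27 in the others. The ETS factor ETV4 fell in all 3, by 2.75, 1.58 and 2.07.

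Other departures downward among genes expressed in all 3 clones included surface and inflammatory genes. EMP1, an epithelial membrane protein whose promoter is printed above, stood at 612, 634 and 713 in clone 12 and fell to 183 and 165. In clone 15 it rose from 741, 732 and 772 to 1251, 1271 and 1275, and in clone 2-1 from 1234, 1202 and 1273 to 1792, 1682 and 1685. Clone 12 was below both under either treatment, and the difference in response was -2.52 ± 0.08 (adjusted p = 3.07e-15). TGANTCA was in 8.57% of the 70 promoters of the 47 matched genes (of 73) with a lower departing response, against 7.46% of the 67 with a higher one and 6.57% of all promoters. Cyclooxygenase 2 (PTGS2) went from 3067, 2990 and 3234 to 895 and 819 in clone 12 and from 364, 360 and 415 to 401, 442 and 452 in clone 15. The phosphatase INPP5J fell by 2.81 against 0.71 and 0.58, and the mucosal glycoprotein DMBT1 fell by 0.96 where it rose by 2.04 and 1.96.

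Of 25 NF-kB and inflammatory genes tested, 17 fell (68.0%) and 6 rose (24.0%) in clone 12, with a median of -1.59. Over all genes tested 31.9% fell and 27.6% rose. In clone 15 10 fell and 6 rose, and in clone 2-1 8 fell and 7 rose. The response of 8 was lower (32.0%) and of 0 higher than in the other clones, beside 11.5% and 11.8% of all genes. None was higher at an unadjusted p under 0.05, by edgeR or by DESeq2 either. The median of the per-gene differences was -0.31, less than the gap between the list medians of the clones. Leukaemia inhibitory factor (LIF), a cytokine of the interleukin-6 family, went from 155, 135 and 148 to 7.78 and 5.84 in clone 12. In clone 15 it went from 301, 303 and 269 to 147, 111 and 139. LIF fell by 4.24 ± 0.18 in clone 12 against 1.14 and 1.48 (difference -2.94 ± 0.21, adjusted p = 2.32e-09). The control clones had responses of -4.55, -4.52 and -3.69 (-3.87 for clone 13 without its JQ1 replicate 1). Of the departing genes expressed in all 3 clones, the mean response of the control clones lay nearer to clone 12 for 16 of the 73 lower and 25 of the 71 higher ones. IL6 was at 73.0 to 80.7 in clone 15 with DMSO and 3.02 to 8.22 in clone 2-1, so both began lower. It fell by 2.62 in clone 15, and its value of -0.55 in clone 2-1 did not pass. CCL2 held 4 and 3 reads in the DMSO libraries of clones 15 and 2-1, and KCNJ15, LGALS12 and GSTA2 held 0 to 1 reads there. For these last 4 genes the difference in response rests on clone 12 alone, because the other clones had almost no reads, and by edgeR none of the 4 differences passed.

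In the list of YAP1, TAZ, the TEAD factors and their targets, 8 of 29 genes rose (27.6%) and 16 fell (55.2%) in clone 12. Over all genes tested 27.6% rose and 31.9% fell. The response of 12 (41.4%) was lower and of 2 (6.90%) higher, beside 11.5% and 11.8% of all genes. CTGF rose in every clone, by 3.21 in clone 12 (25.6, 19.4 and 21.6 to 213.8 and 211) and by 5.37 and 4.90 in the others. The related CYR61 had a value of -0.08 in clone 12, which did not pass, where it rose by 1.75 and 0.71. Tissue factor (F3) fell by 2.39 against 0.46 and 0.50, and TGFB2 by 2.59 against 1.01 in clone 15 and a value of -0.03 in clone 2-1.

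Some ribosome genes differed between clones by small amounts, and none was a departing gene. Of 51 nucleolar ribosome biogenesis genes, 15 rose (29.4%) and 27 fell (52.9%) in clone 12 (median -0.18), beside 27.6% and 31.9% of all genes. The response of 25 was lower (49.0%) and of 2 higher (3.92%), beside 11.5% and 11.8% of all genes. The differences were small, with treacle (TCOF1) at -0.39 and MYBBP1A at -0.46. The polymerase I factor UBTF went the other way, from 2687, 2627 and 2679 to 3111 and 3012, where it fell by 0.45 and 0.53. Of 85 cytoplasmic ribosomal protein genes 59 fell (69.4%) and 5 rose (5.88%) in clone 12. The response of 14 was higher (16.5%, near the 11.8% of all genes) and of 3 lower (3.53%), with RPL3 at a difference of 0.22.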

How the data were processed

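Messenger RNA was sequenced after TruSeq Stranded mRNA preparation, per the labels' protocols, and 2 deposited tables were used. The submitters' processing notes name cutadapt, STAR, RSEM and hg19, without versions or order. The main table, named by the authors as DESeq2-normalized counts, holds 19014 genes, and the deposited signal is each library's gene counts over its own size factor. The second table holds the authors' deposited FPKM values of 57820 genes, scaled by gene length. Whole reads were recovered from the normalized counts (100% of values within 1e-06 of a whole read).

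limma 3.58.1 in R 4.3.3 was run on log2(normalized count + 1), which understates changes of low genes, with an expression trend in the prior, over 17 knockout libraries in 6 groups. The 16968 genes reaching 10 normalized counts in 2 or more libraries were tested. P-values are two-sided, given by limma where no other tool is named, and adjusted over all genes tested by the Benjamini-Hochberg method at 0.05. Values of control clones are differences of mean log2 values, without a test. Where a group held 0 reads, the fold is a bound against 3 reads over the group; with 1 to 3 reads it is a ratio with its 95% exact interval. Near-identical copies and overlapping genes can share reads.

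Named genes were NEUROD1, MYC, HEXIM1, BRD2, the 10 largest rises and falls in clone 12 (treatments not overlapping, at most 3 histone genes), the 10 largest departures per direction among genes expressed in all 3 clones and the 5 largest among others (size being the distance to the nearer clone), all with a mean of at least 50 in a group of clone 12, and up to 4 members of each list described. The members and lists were chosen with earlier results of these data known. TP63, the basal keratins and genes given as list examples beyond these ranks were taken from the lists. The scripts were tested on simulated data. Alternatives were other pseudocounts, filters, scalings (equal totals, TMM), FPKM with an offset of 0.1, other sets of libraries, edgeR 4.0.16, DESeq2 1.42.0, no trend, a replicate block and leaving out each library. Promoters came from RefSeq (GRCh38.p14). Plots used matplotlib 3.10.9 under Python 3.11.15.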

Additional observations from a re-analysis of the deposited data

Results flagged for a closer look

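The following results differed between clone 12 and the mean of clones 15 and 2-1 by a test of the difference itself (limma, adjusted over all genes). In all, 3940 genes did. Among genes expressed in all 3 clones and ranked highest by size, the response of clone 12 was higher, in log2 units, for CSAG2 by 8.05, TXNIP by 2.78, TSHR by 2.30, TTN by 2.29, AHNAK2 by 2.20, SLC16A9 by 1.99, GFI1 by 1.98, SAMD11 by 1.98, ARRDC4 by 1.93 and FAM21D by 1.83. The values of CSAG2 and FAM21D are uncertain, because both have near-identical copies.

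The response of clone 12 was lower, with differences of -5.44 for CSAG3 (uncertain for the same reason), -2.96 for DMBT1, -2.94 for LIF, -2.52 for EMP1, -2.49 for HBEGF, -2.40 for KRT80, -2.35 for FOSL1, -2.32 for SPRY2, -2.17 for INPP5J and -2.15 for PTGS2. Among the other departing genes the differences upward were 3.69 for ZCCHC12, 2.55 for HES7, 2.40 for PLIN5, 2.37 for PCDH17 and 1.88 for SLPI. Those downward were -5.09 for CCL2, -4.67 for IL6, -4.46 for KCNJ15, -4.12 for LGALS12 and -3.70 for GSTA2. For 4 of these 5, all but IL6, clones 15 and 2-1 held almost no reads.

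CEACAM6 stood at 46010 normalized counts in the JQ1 library of clone 12 that was left out, and at 0 in all 17 knockout libraries compared.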

How the results depend on the processing

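Clone 12 with JQ1 had 2 libraries, which limits the precision of every value above. With the library of foreign RNA included, the difference passed for 1368 genes against the mean of the other clones, 690 against clone 15 and 1627 against clone 2-1, and 316 genes departed (62.7% of them higher, against 46.8%). The differences of TXNIP (2.76), ARRDC4 (1.69), HBEGF (-2.81), SPRY2 (-2.18), FOSL1 (-2.11) and PTGS2 (-2.04) then still passed. Those of CDKN1A (0.75), TP63 (0.97), EMP1 (-1.69), IL6 (-2.80) and LIF (-0.61) did not, and of the AP-1 list 8 members were lower in place of 20. Values that turned with it were the differences of MYC (-0.02), KLF6 (0.03), NGFR (-0.17), FAM21D (-0.19) and ACSL5 (0.82) and the responses of RPL3 (-0.01), UBTF (-0.01) and DMBT1 (1.19). With FPKM the response of GFI1 turned (-0.03), and 2510, 1930 and 2700 genes passed for the same 3 differences. Departing genes numbered 211 with a mean of at least 50 (and 1595 genes then passed 2-fold in clone 12), 371 by DESeq2, 417 by edgeR (58.3% higher), and 340 when both pairwise differences had to pass, a setting chosen after seeing the data, as was leaving out JQ1 replicate 1 of control clone 13. Among the 144 expressed in all 3 clones, 136 were shared with DESeq2, 138 with edgeR and 105 with FPKM. The cause of these shifts was not tested, except that fewer genes were tested at a mean of at least 50. By edgeR the differences of BMX, CCL2, KCNJ15, LGALS12, GSTA2, EPHA2, IL7R, SLC14A1, ACSL5 and CDH5 did not pass, nor did the response of DUSP6, and CSAG2 and CSAG3 lost calls under most settings. Leaving out single libraries gave 8726 to 10172 genes for the response, 2707 to 3078 past 2-fold, 2824 to 4043, 2370 to 3185 and 3473 to 4603 for the differences and 483 to 584 departing genes, each lowest without JQ1 replicate 3 of clone 12, and reversed no called value of the genes named. Same-numbered libraries did not deviate together (40 pairs, r from -0.122 to 0.176, median 0.0314). A replicate block gave 9894 genes for the response, 3686 for the difference and 550 departing genes, and ended the calls of the responses of BMF, GFI1 and CSAG2 and of the difference of KRT15. The median response of all genes in clone 12 was -0.069 with the deposited scaling, -0.115 with equal totals and -0.024 with TMM.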

Other observations

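Of 15 BCL2 family genes tested 5 rose and 5 fell in clone 12 (33.3% each, near the 27.6% and 31.9% of all genes), and the response of 3 was higher (20.0%) and of 5 lower (33.3%) than in the other clones, beside 11.8% and 11.5% of all genes. The survival factor BCL2L1 (BCL-xL) went from 957, 1010 and 991 normalized counts with DMSO to 459 and 431 with JQ1, a fall of 1.15 ± 0.08 against -0.09 and -0.41 in clones 15 and 2-1 (difference -0.90 ± 0.10, limma adjusted p = 1.15e-06). MCL1, another survival factor chosen after its values were seen, rose in every clone but by less in clone 12, 0.57 against 1.06 and 1.26. The killer protein BCL2L11 (BIM) rose by 1.38 against 0.92 and 0.60, and BMF by 0.55 ± 0.23 (adjusted p = 0.0483), where its values were -0.34 and -0.83.

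Of 31 antioxidant genes of the NRF2 list, 15 rose and 8 fell in clone 12 (48.4% and 25.8%), 12 and 12 in clone 15 and 15 and 7 in clone 2-1. The response of 10 was higher (32.3%) and of 5 lower (16.1%), beside the same shares of all genes. The quinone reductase NQO1 went from 89.2, 111 and 131 to 268 and 314, a rise of 1.40 ± 0.15 where clones 15 and 2-1 had 0.19 and 0.25, which did not pass. Haem oxygenase (HMOX1) went from 82.0, 78.6 and 79.9 to 279 and 310.5 and rose by 1.86 against 1.09 and 1.19.

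In the Wnt list, 9 of 35 genes had a higher and 6 a lower response in clone 12, and 3 departed upward (the first 2 are 25.7% and 17.1%, beside 11.8% and 11.5% of all genes, of which 1.55% departed upward). FRZB, a secreted Wnt antagonist, was nearly absent from clone 12 (0, 0 and 2.16 with DMSO, 1.94 and 2.33 with JQ1), while in clone 2-1 it went from 122, 157 and 131 to 2.04, 1.88 and 3.79. Its difference of 5.63 rests on the falls in the other clones. The ligand WNT11 went from 25.6, 13.3 and 42.1 to 41.8 and 52.5 in clone 12, where the DMSO and JQ1 libraries overlapped, and from 433, 483 and 484 to 89.8, 74.3 and 68.2 in clone 2-1.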
